A study of Mus musculus with 12 samples.

Results

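The FANCJ knockout was compared with wild type in mouse embryonic stem cells of the IB10 line, which derives from 129/Ola mice. The comparison used 6 of the 12 bulk RNA-seq libraries of the series, 3 labelled FANCJ knockout (FANCJ KO) and 3 labelled wild type (WT), and the 12765 genes that passed the expression filter out of 32285 in the count table. The other 6 libraries, 3 of DHX36/FANCJ KO cells and 3 of DHX36 KO cells, gave the same gene loss in cells that lack the helicase DHX36 and share no library with FANCJ KO or WT. Cells of all 4 genotypes grew on gelatin in conditioned medium with fetal calf serum and leukaemia inhibitory factor. Each library came from 100000 lysed cells and was made in the manner of CEL-Seq2, which barcodes the 3′ ends of polyadenylated transcripts so that samples can be pooled early. The labels do not state separate cultures for the 3 libraries of a genotype, so p-values measure only how far these libraries differ, and that spread may be technical. The sources used here do not give the number of FANCJ KO clones, and FANCJ loss and a difference between clones cannot be told apart.

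FANCJ, encoded in the mouse by Brip1, is a DNA helicase that binds BRCA1, acts in the Fanconi anaemia pathway of DNA crosslink repair, and unwinds G-quadruplexes, the stacked structures that guanine-rich strands can fold into, ahead of replication forks. Its loss is known to cause deletions at G-quadruplex sites in the worm Caenorhabditis elegans and to disturb the inheritance of chromatin marks near such sites in chicken cells. Embryonic stem cell cultures hold mostly pluripotent cells, with minor populations that express primitive endoderm genes or genes of the 2-cell embryo.

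The FANCJ KO libraries held 4936662 to 7900066 counts and the WT libraries 4284785 to 5792862. Mitochondrial transcripts took 11.2% to 11.5% of the counts in FANCJ KO and 10.0% to 10.6% in WT. Any 2 libraries of a genotype were further apart than sampling of counts would leave them (ratio of chi-square to its degrees of freedom 4.11 to 6.88 in FANCJ KO, 4.59 to 7.90 in WT), and each was counted as 1 replicate. All 10 embryonic stem cell markers were detected in every library, and their summed level was 4069 to 4300.5 CPM (normalised counts, each library brought to the same total) in FANCJ KO and 4607 to 4672 CPM in WT. All 10 fold changes were below 0, and 1 of them, that of Tdh, passed the test. Pou5f1, Sox2 and Nanog, the core pluripotency factors, averaged 81.0, 1314 and 214 CPM in FANCJ KO, against 99.6, 1435 and 217 CPM in WT, and their differences did not pass the test. Afp, a marker of mature visceral endoderm, had 0 counts in all 6 libraries, and Ttr, another, had 0 counts apart from 1 count in WT library 2.

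Brip1 (ENSMUSG00000034329) lies on the minus strand of chromosome 11, from 86058138 to 86201193 in GRCm38, and its counts were 1, 2 and 3 in FANCJ KO, against 31, 38 and 30 in WT. Every FANCJ KO library was far below every WT library, and the mean level was 0.338 ± 0.253 CPM in FANCJ KO and 6.87 ± 0.154 CPM in WT (SD, n = 3 each). The log2 fold change was -4.45 (SE 0.45, edgeR adjusted p = 4.1e-06). Brip1os, a noncoding gene on the plus strand of chromosome 11, from 86201370 to 86304443, starts next to Brip1 and runs away from it without overlap. It had 4, 2 and 6 counts in FANCJ KO and 50, 90 and 94 counts in WT (log2 fold change -4.73, SE 0.39). The sources used here do not name the deleted part of Brip1, so the few remaining tags do not show what is left of the protein. Dhx36, the helicase gene that these cells keep, had 57.2, 51.5 and 58.0 CPM in FANCJ KO and 54.7, 57.6 and 50.1 CPM in WT, with overlapping groups.

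Across all genes, 264 of 12765 (2.07%) differed between FANCJ KO and WT at an adjusted p under 0.05 (edgeR quasi-likelihood F test, Benjamini-Hochberg), and these are the genes said to rise, fall or change. Of these, 185 (1.45%) were higher and 79 (0.619%) were lower in FANCJ KO. At least 2-fold changes were reached by 52 of the higher genes (0.407%) and 13 of the lower genes (0.102%). An unadjusted p under 0.05 was reached by 1910 genes. The 3 FANCJ KO libraries lay entirely above the 3 WT libraries for 1276 genes (10.0%) and entirely below for 1110 (8.70%). The 15 largest rises and the 15 largest falls named below had to show this separation. For them, a lack of overlap was required by the choice. Leaving out any 1 of the 6 libraries reduced the 264 genes to between 110, without FANCJ KO library 1, and 198, without WT library 3. It was 130 without WT library 1, 131 without WT library 2, 181 without FANCJ KO library 2 and 143 without FANCJ KO library 3. Fitting the 2 genotypes alone gave 159 genes.

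**Figure D1:**
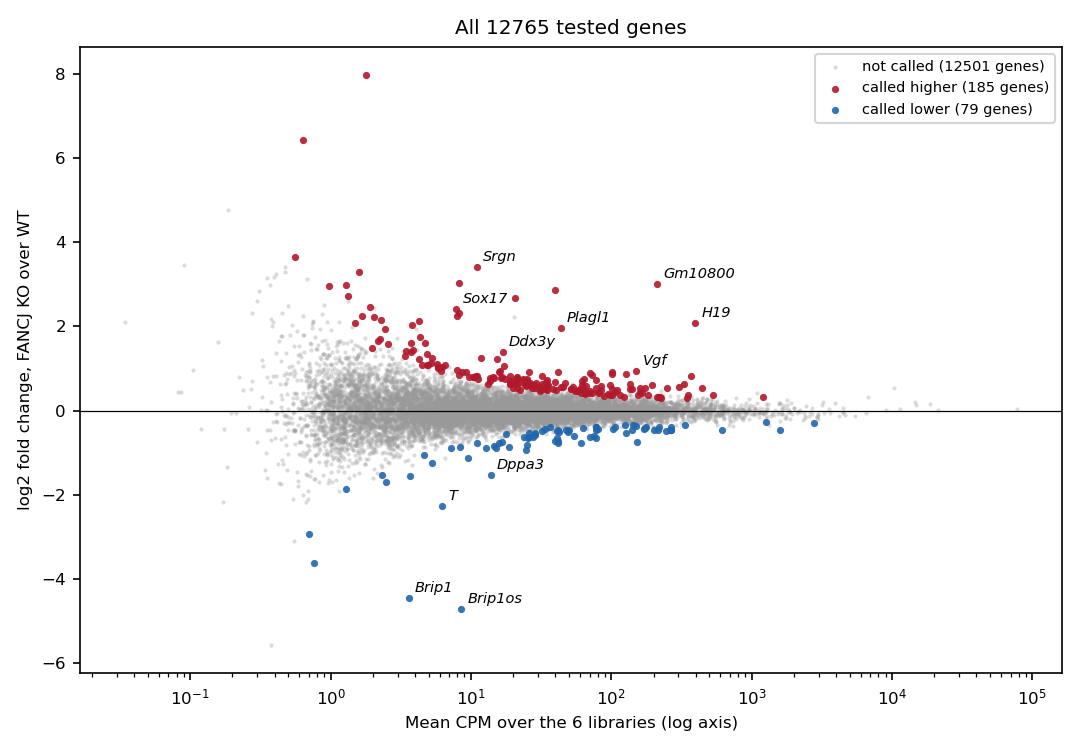
Each point is 1 of the 12765 tested genes, with its mean level over the 6 libraries in CPM on a log axis and its log2 fold change of FANCJ KO over WT. The 185 higher genes (red) outnumber the 79 lower ones (blue), and Brip1 and Brip1os lie at -4.45 and -4.73. Kdm5d, which was not called and had 0 counts in FANCJ KO, lies lower at -5.57. The highest points at the left are genes of few counts, whose fitted folds depend on the prior count.

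Genes of primitive endoderm, which gives rise to the yolk sac, and of the extracellular matrix were higher in FANCJ KO. Of 24 primitive endoderm genes tested, 10 rose and 0 fell, with a median log2 fold change of 0.56, against -0.00 over all genes tested. Of 35 extracellular matrix genes, which share some of those members, 11 rose and 0 fell, with a median of 0.36. At an unadjusted p under 0.05, 14 endoderm genes were higher and 1 was lower, and 19 matrix genes were higher and 1 was lower, and the DESeq2 test called 10 and 11 of them higher and 0 lower. In bulk RNA, more cells of a type and more RNA per cell cannot be told apart.

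Srgn, which encodes the secreted proteoglycan serglycin, had 18.4, 19.8 and 22.3 CPM in FANCJ KO, against 1.99, 1.06 and 2.81 CPM in WT. Its lowest FANCJ KO library was far above its highest WT library, and the log2 fold change was 3.41 (SE 0.25, adjusted p = 4.7e-08). Sox17, a transcription factor that specifies endoderm, had 18.7, 11.3 and 9.49 CPM in FANCJ KO, against 4.65, 1.24 and 1.87 CPM in WT. Its groups did not overlap, although FANCJ KO library 1 stood above the other FANCJ KO libraries (log2 fold change 2.42, SE 0.35, adjusted p = 0.000418).

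Gata6, the transcription factor at the head of the primitive endoderm programme, was low in all libraries, with 5.16, 3.99 and 5.98 CPM in FANCJ KO and 2.21, 1.94 and 1.41 CPM in WT. The groups did not overlap (log2 fold change 1.40, SE 0.31, adjusted p = 0.0189). Gata4, its partner, named here after its value was seen, averaged 7.61 CPM in FANCJ KO and 3.92 CPM in WT and did not pass (0.96, adjusted p = 0.0998). Sox7 (0.35, adjusted p = 0.711) and Pdgfra (0.73, adjusted p = 0.661), further endoderm genes looked up in the same way, did not pass either. Cubn, the endocytic receptor cubilin of visceral endoderm and kidney, averaged 3.25 ± 1.67 CPM in FANCJ KO and 0.548 ± 0.488 CPM in WT (SD, n = 3 each), a log2 fold change of 2.45 (SE 0.61, adjusted p = 0.0379).

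Among matrix genes, Col4a1, a chain of basement membrane collagen, had 87.3, 95.6 and 91.0 CPM in FANCJ KO and 48.9, 42.4 and 57.1 CPM in WT (log2 fold change 0.89, SE 0.11, adjusted p = 0.000105). Lama1, the laminin chain of the embryonic basement membrane, had 25.5, 19.7 and 16.3 CPM in FANCJ KO and 10.6, 8.66 and 14.1 CPM in WT (0.92, SE 0.21, adjusted p = 0.0218). In both genes all FANCJ KO libraries lay above all WT libraries, by a wide margin in Col4a1 and a narrow one in Lama1. Serpine2, which inhibits thrombin and other proteases at the cell surface, had 47.7, 49.7 and 65.2 CPM in FANCJ KO and 38.7, 19.98 and 27.2 CPM in WT, without overlap (0.92, SE 0.17, adjusted p = 0.00521). Igfbp4, which binds insulin-like growth factors, had 161, 110.1 and 122 CPM in FANCJ KO and 62.0, 68.8 and 79.6 CPM in WT (0.91, SE 0.16, adjusted p = 0.00321). Col6a1, a chain of microfibrillar collagen, was near the floor of detection in WT, with 0.443, 1.41 and 0.468 CPM, and had 1.93, 5.05 and 4.33 CPM in FANCJ KO (2.16, SE 0.51, adjusted p = 0.0284).

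Leaving out 1 library at a time gave 5 to 8 higher endoderm genes, with 5 without WT library 2 and 6 without FANCJ KO library 1. It gave 6 to 8 higher matrix genes, with 6 without WT library 1 or FANCJ KO library 1 and 7 without WT library 2. Gata6 lost its call without WT library 2 or 3 or FANCJ KO library 1 or 3 (adjusted p = 0.0622 to 0.0685). Lama1 lost its call without WT library 1 or 2 or FANCJ KO library 1 (0.0823, 0.127 and 0.133). Cubn lost its call in 5 of the 6 fits (0.0544 to 0.145) and Col6a1 in 4 (0.0774 to 0.132).

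**Figure D2:**
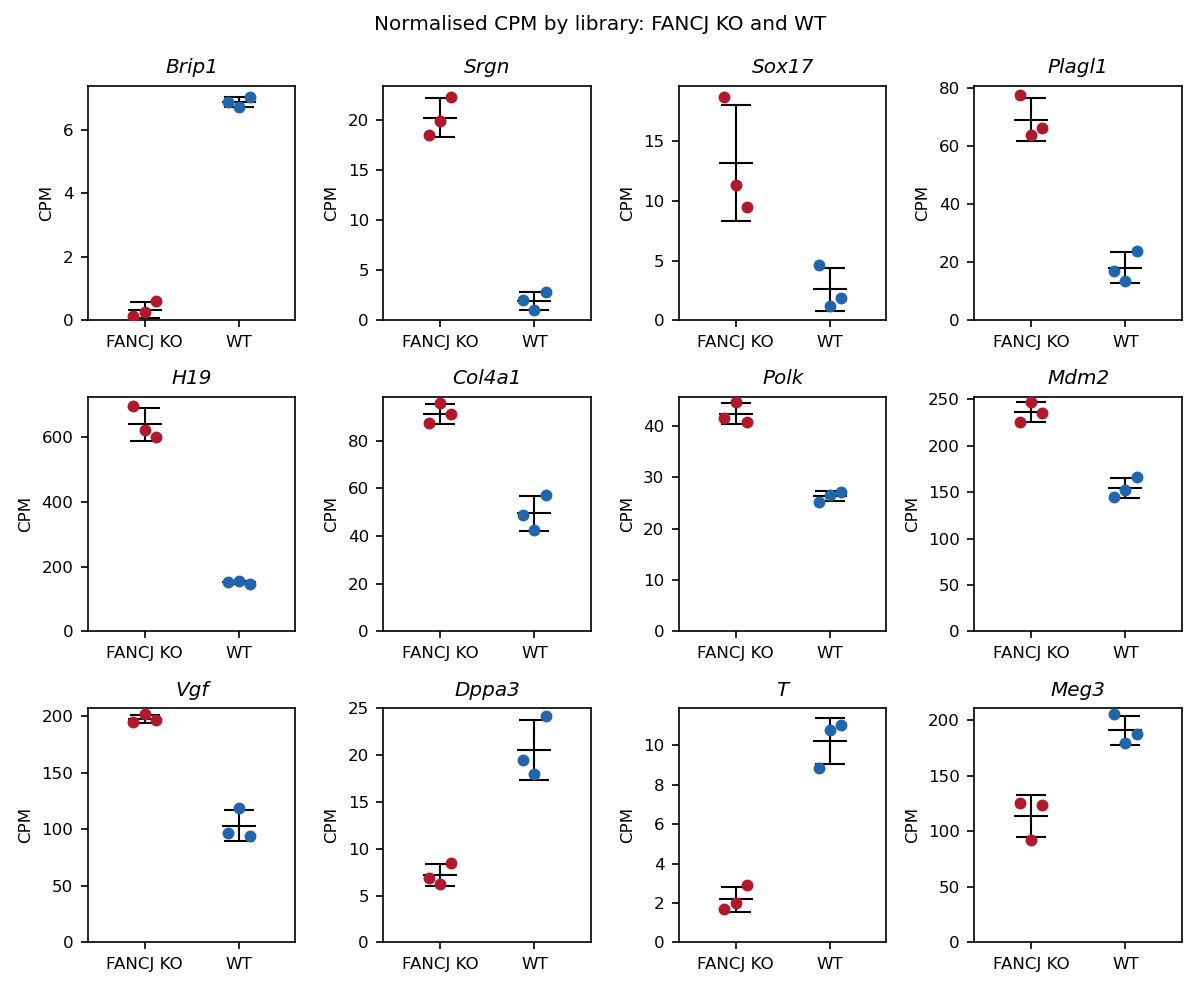
CPM of 12 genes in each FANCJ KO library (red) and each WT library (blue), on linear axes from 0, with the mean and SD of 3 libraries in black. The FANCJ KO and WT points do not overlap in any of the 12 genes, among them Srgn (18.4 to 22.3 CPM in FANCJ KO, 1.06 to 2.81 CPM in WT) and Dppa3, the reverse case.

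Targets of p53, the transcription factor that responds to DNA damage, were slightly higher in FANCJ KO. Of 35 tested, 8 rose and 0 fell, with a median of 0.26, and 30 of the 35 had a positive fold change. At an unadjusted p under 0.05, 16 were higher and 1 was lower, and the DESeq2 test called 9 higher and 0 lower. The summed level of the list was 3097 to 3122 CPM in FANCJ KO and 2590.1 to 2661 CPM in WT.

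Mdm2, the ubiquitin ligase that restrains p53 and is itself its target, had 225, 247 and 235 CPM in FANCJ KO, against 145, 152 and 167 CPM in WT. The groups were clearly separate (log2 fold change 0.61, SE 0.08, adjusted p = 0.000236). Polk, a translesion DNA polymerase, had 41.5, 44.7 and 40.8 CPM in FANCJ KO and 25.2, 26.5 and 27.2 CPM in WT, again far apart (0.69, SE 0.12, adjusted p = 0.00258). Btg2, an antiproliferative gene, averaged 64.1 ± 4.58 CPM in FANCJ KO and 46.6 ± 3.34 CPM in WT (SD, n = 3 each; 0.46, adjusted p = 0.0161). Plk3, a stress-responsive kinase (0.79, adjusted p = 0.0416), Pmaip1, which encodes the pro-apoptotic protein Noxa (0.54, adjusted p = 0.0366), and Trp53inp1, a p53-induced nuclear protein (0.52, adjusted p = 0.0371), rose too. Cdkn1a, the cell cycle inhibitor p21, named after its value was seen, averaged 185 ± 23.7 CPM in FANCJ KO and 154 ± 14.4 CPM in WT and did not pass (0.26, adjusted p = 0.256). Trp53 itself averaged 972 ± 53.1 CPM in FANCJ KO and 943 ± 38.7 CPM in WT (0.04, adjusted p = 0.861).

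The count of higher p53 targets was 2 without WT library 1, 3 without FANCJ KO library 1, 4 without WT library 2 or FANCJ KO library 3, 5 without FANCJ KO library 2 and 4 with the 2 genotypes fitted alone. Mdm2 and Polk kept their calls throughout, whereas Btg2 lost its own without WT library 1 (adjusted p = 0.0825) or FANCJ KO library 1 (0.0850). Plk3 and Pmaip1 lost theirs in all 6 such fits (0.0518 to 0.150 and 0.0548 to 0.172) and Trp53inp1 in 4 (0.0966 to 0.176).

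Imprinted genes, which are expressed from the allele of only 1 parent, moved in both directions. Of 27 paternally expressed genes tested, 5 rose and 0 fell (median 0.22; 11 higher and 0 lower at an unadjusted p under 0.05, and 5 higher and 0 lower by DESeq2). Of 20 maternally expressed genes, 1 rose and 2 fell (median 0.17; 6 higher and 3 lower at an unadjusted p under 0.05, 2 and 2 by DESeq2).

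H19, a maternally expressed noncoding RNA (ENSMUSG00000000031, GRCm38 chromosome 7, 142575529 to 142578143, minus strand), had 696, 622 and 599 CPM in FANCJ KO, against 151, 157 and 145 CPM in WT. The libraries of each genotype lay close together and far from those of the other, and the log2 fold change was 2.08 (SE 0.09, adjusted p = 9.2e-13), the smallest adjusted p among the genes named. Igf2, the paternally expressed growth factor gene next to H19, had 620.2, 610.5 and 553 CPM in FANCJ KO and 445, 499 and 439 CPM in WT, a smaller change (0.37, SE 0.08, adjusted p = 0.0189). Plagl1, a paternally expressed zinc finger transcription factor, had 77.3, 63.6 and 66.0 CPM in FANCJ KO and 16.8, 13.4 and 23.9 CPM in WT (1.96, SE 0.15, adjusted p = 5.8e-08).

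Peg3, a paternally expressed zinc finger gene, had 166, 164 and 166 CPM in FANCJ KO and 110.3, 80.8 and 79.2 CPM in WT (0.88, SE 0.12, adjusted p = 0.000153). Zrsr1, a paternally expressed retrocopy related to splicing factors, averaged 33.8 ± 4.41 CPM in FANCJ KO and 17.7 ± 1.09 CPM in WT (0.92, SE 0.13, adjusted p = 0.000257). Airn, the paternally expressed RNA antisense to Igf2r, was barely detected, at 3.09, 1.86 and 3.30 CPM in FANCJ KO and 1.33, 0.177 and 0.234 CPM in WT (2.25, SE 0.59, adjusted p = 0.0464).

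Meg3 and Mirg, maternally expressed noncoding RNAs of the Dlk1-Dio3 domain on chromosome 12, fell. Meg3 had 126, 91.6 and 124 CPM in FANCJ KO and 205, 179 and 187 CPM in WT (-0.75, SE 0.11, adjusted p = 0.000418). Mirg had 16.2, 16.4 and 18.8 CPM in FANCJ KO and 33.7, 36.6 and 26.9 CPM in WT (-0.94, SE 0.15, adjusted p = 0.00201). In both genes every FANCJ KO library was below every WT library. Paternally expressed genes called higher numbered 3 without WT library 3 or FANCJ KO library 1. The calls of H19, Plagl1, Peg3, Zrsr1, Meg3 and Mirg held without any 1 library. That of Igf2 was lost without WT library 1 or 3 or FANCJ KO library 1 or 2 (adjusted p = 0.0602 to 0.0875) and that of Airn without WT library 2 or 3 or FANCJ KO library 1 or 3 (0.124 to 0.208).

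Genes of the 2-cell-like state, a rare state of stem cell cultures that resembles the early embryo, were higher. Of 12 tested, 4 rose and 0 fell, with a median of 0.70 (7 higher and 0 lower at an unadjusted p under 0.05; 4 and 0 by DESeq2). Their summed level was 113 to 124 CPM in FANCJ KO and 72.2 to 81.5 CPM in WT. Zscan4d, a telomere regulator that marks this state, had 37.9, 37.8 and 29.1 CPM in FANCJ KO and 26.3, 16.4 and 25.8 CPM in WT, without overlap (0.64, SE 0.15, adjusted p = 0.0237). Usp17lc, a deubiquitinase gene, averaged 11.3 ± 0.993 CPM in FANCJ KO and 5.91 ± 1.31 CPM in WT (0.92, adjusted p = 0.00999). The predicted genes Gm5662 (0.75, adjusted p = 0.00878) and Gm8300 (0.74, adjusted p = 0.0344) rose with it. The Zscan4 and Usp17l families hold near-identical copies that can exchange reads, so values of single members are uncertain. Without WT library 1 the list had 1 call and without FANCJ KO library 1 or 2 it had 2. Without WT library 1, Usp17lc reached an adjusted p of 0.0586, Gm5662 of 0.0531 and Gm8300 of 0.156. Gm8300 lost its call in 5 of the 6 fits (0.0517 to 0.156), and Zscan4d lost its call without WT library 2 (0.140) or FANCJ KO library 1 or 2 (0.108 and 0.0855).

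Of 30 germline and meiosis genes, 3 rose and 0 fell (median 0.22; 8 higher and 0 lower at an unadjusted p under 0.05, 3 and 0 by DESeq2). Xlr3b, an X-linked lymphocyte-regulated gene expressed from a multicopy cluster, had 12.5, 14.4 and 14.2 CPM in FANCJ KO and 3.32, 2.12 and 2.81 CPM in WT, with a wide gap between the groups (2.33, SE 0.25, adjusted p = 9.1e-06). Xlr3a of the same cluster averaged 21.2 ± 2.72 CPM in FANCJ KO and 11.1 ± 0.142 CPM in WT (0.94, SE 0.17, adjusted p = 0.00397). Fkbp6, a chaperone of the meiotic piRNA pathway, followed (0.81, SE 0.20, adjusted p = 0.0345), but lost its call in 5 of the 6 fits without 1 library (adjusted p = 0.0851 to 0.124).

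Of the 5 Y-linked genes of the list, 3 rose (3 higher and 1 lower at an unadjusted p under 0.05). The summed level of the list was 46.0 to 49.2 CPM in FANCJ KO and 23.4 to 24.6 CPM in WT. In DHX36 KO it was 84.0 to 86.2 CPM and in DHX36/FANCJ KO 72.6 to 86.5 CPM, so WT had the lowest level of all genotypes. The median of the list in DHX36/FANCJ KO over DHX36 KO was -0.12, with 0 members called higher and 1 lower. Ddx3y, which encodes an RNA helicase, had 24.0, 26.7 and 22.1 CPM in FANCJ KO and 9.96, 8.31 and 9.84 CPM in WT, far apart (1.39, SE 0.16, adjusted p = 2.8e-05). Eif2s3y, a translation initiation factor gene, averaged 16.2 ± 1.68 CPM in FANCJ KO and 10.4 ± 1.02 CPM in WT (0.62, SE 0.15, adjusted p = 0.0297). Uty, a histone demethylase gene, averaged 3.37 ± 0.855 CPM in FANCJ KO and 0.986 ± 0.524 CPM in WT (1.65, SE 0.41, adjusted p = 0.0379). Uba1y did not pass (0.50, adjusted p = 0.439), and Kdm5d, a histone demethylase gene, had 0 counts in all FANCJ KO libraries and 6, 0 and 4 counts in WT. Ddx3y kept its call without any 1 library. Uty and Eif2s3y lost theirs without WT library 1 (adjusted p = 0.151 and 0.115), WT library 3 (0.117 and 0.0767), FANCJ KO library 1 (0.0609 and 0.0630) or FANCJ KO library 3 (0.120 and 0.101), and Uty also without FANCJ KO library 2 (0.0726).

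Genes that fell besides Brip1 included a T-box factor of the primitive streak and a maternal-effect gene of naive cells. T, also called brachyury, had 1.68, 1.99 and 2.89 CPM in FANCJ KO, against 8.86, 10.8 and 11.01 CPM in WT (-2.28, SE 0.25, adjusted p = 9.1e-06). Dppa3, which encodes Stella, a protein that shields methylated DNA marks in the zygote, had 6.83, 6.25 and 8.46 CPM in FANCJ KO and 19.5, 18.03 and 24.1 CPM in WT (-1.53, SE 0.17, adjusted p = 9.1e-06). In both genes the highest FANCJ KO library was far below the lowest WT library.

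Wnt genes with calls were lower: of 23 tested, 0 rose and 3 fell (median -0.15; 4 higher and 5 lower at an unadjusted p under 0.05, 1 higher and 3 lower by DESeq2). Besides T, they were Sp5 and Porcn. Sp5, a direct Wnt target, had 7.73, 4.65 and 5.36 CPM in FANCJ KO and 14.6, 12.7 and 11.9 CPM in WT (-1.13, SE 0.21, adjusted p = 0.00517). Porcn, the enzyme that lipidates Wnt ligands, had 18.4, 22.6 and 18.4 CPM in FANCJ KO and 35.2, 26.9 and 32.6 CPM in WT (-0.66, SE 0.13, adjusted p = 0.00878). Neither pair of groups overlapped, but Porcn lost its call without WT library 1 (adjusted p = 0.0609) or FANCJ KO library 1 (0.0638). Of 32 Nodal and BMP genes, 0 rose and Lefty2 alone fell (6 higher and 2 lower at an unadjusted p under 0.05, 0 and 1 by DESeq2). Lefty2, a Nodal antagonist and target, had 7.86, 8.64 and 10.7 CPM in FANCJ KO and 18.4, 15.03 and 16.9 CPM in WT (-0.90, SE 0.16, adjusted p = 0.00403).

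Of 30 naive pluripotency genes, 0 rose and 3 fell (median -0.11; 2 higher and 7 lower at an unadjusted p under 0.05, 0 and 3 by DESeq2). They were Dppa3, Sox15 and Tdh. Sox15, a SOX factor close to Sox2, averaged 30.1 ± 2.42 CPM in FANCJ KO and 49.8 ± 7.61 CPM in WT (-0.72, SE 0.12, adjusted p = 0.0023). Tdh, the threonine dehydrogenase of mouse stem cells, averaged 149 ± 9.38 CPM in FANCJ KO and 198 ± 9.31 CPM in WT (-0.41, SE 0.08, adjusted p = 0.0134). Tdh lost its call without WT library 1 or 2 or FANCJ KO library 1 or 3 (adjusted p = 0.0577 to 0.0909). The 19 formative and primed genes had 0 calls (1 higher and 6 lower at an unadjusted p under 0.05), and DESeq2 called 1 lower.

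Egr1, an immediate early transcription factor, fell, with 10.96, 9.44 and 11.1 CPM in FANCJ KO and 19.5, 19.6 and 17.3 CPM in WT (-0.85, SE 0.14, adjusted p = 0.00227). The immediate early genes Fos (0.81, adjusted p = 0.0186) and Jun (0.50, adjusted p = 0.00913) rose. Of the 26 immediate early genes, 3 rose, Btg2 among them, and 1 fell (median 0.00), but 0 were higher without WT library 1. Jun lost its call without WT library 1 (adjusted p = 0.0563) and Fos without WT library 1 or 3 or FANCJ KO library 3 (0.0694, 0.0585 and 0.0814). Further falls beyond the replicate spread included Bdh1, a mitochondrial ketone body enzyme (-0.87, SE 0.17, adjusted p = 0.00804), Bcl3, a nuclear IκB protein (-0.72, SE 0.13, adjusted p = 0.00382), and Fam98c (-0.81, SE 0.12, adjusted p = 0.000368). Vgf and Ptgs2 rose as well. Vgf, a secreted neuropeptide precursor, had 195, 202 and 196 CPM in FANCJ KO and 96.8, 119 and 94.1 CPM in WT (0.93, SE 0.10, adjusted p = 9.1e-06). Ptgs2, the inducible cyclooxygenase, had 16.6, 18.5 and 14.6 CPM in FANCJ KO and 4.21, 6.19 and 10.8 CPM in WT (1.26, SE 0.24, adjusted p = 0.00623).

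No other gene of the pathway that FANCJ belongs to passed the test. Of 33 Fanconi and homologous recombination genes other than Brip1, 0 passed the edgeR test and 0 the DESeq2 test (1 higher and 4 lower at an unadjusted p under 0.05). Their median was -0.15, and 8 of the 33 had a positive fold change. Brca1, whose product binds FANCJ, averaged 60.3 ± 2.40 CPM in FANCJ KO and 75.9 ± 3.09 CPM in WT and did not pass (-0.33, adjusted p = 0.116). Among 25 other G-quadruplex helicases and factors of structured DNA, Hmces, a shield of abasic sites, was the only one called by edgeR. It averaged 44.8 ± 7.29 CPM in FANCJ KO and 77.2 ± 18.6 CPM in WT (-0.78, SE 0.16, adjusted p = 0.0113), and its call was lost without WT library 2 (0.103) or FANCJ KO library 1 or 3 (0.0559 and 0.0577). Of 41 replication genes, 0 rose and 2 fell (0 higher and 8 lower at an unadjusted p under 0.05, 0 and 3 by DESeq2). Pold2, a subunit of DNA polymerase delta, had 49.6, 53.6 and 62.5 CPM in FANCJ KO and 87.2, 76.4 and 91.8 CPM in WT (-0.63, SE 0.11, adjusted p = 0.00338). The licensing factor Cdt1 fell too (-0.40, adjusted p = 0.0286), but lost its call in 5 of the 6 fits without 1 library (0.0505 to 0.169).

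Several groups had 0 calls by edgeR and by DESeq2. They were the 22 interferon and antigen presentation genes, 25 cholesterol genes, 34 glycolysis and hypoxia genes, 22 endoplasmic reticulum chaperones, 13 mitochondrial mRNAs and 32 genes of G2 and mitosis, with medians from -0.10 (cholesterol) to 0.15 (chaperones). At an unadjusted p under 0.05, each of these groups had 1 to 6 higher and 0 to 4 lower members. The 9 neuroectoderm genes had 0 calls by edgeR (1 higher at an unadjusted p under 0.05) and 1 higher by DESeq2. Of 32 genes of the integrated stress response under ATF4, 0 rose and 2 fell. They were the one-carbon enzyme Mthfd2 (-0.52, adjusted p = 0.0379) and the serine synthesis enzyme Psat1 (-0.35, adjusted p = 0.0459). At an unadjusted p under 0.05, 3 of the 32 were higher and 8 lower, and DESeq2 called 0 higher and 3 lower. Of 30 genes of apoptosis and damage signalling, Gadd45g, a stress sensor, rose (0.60, adjusted p = 0.0302) and Mdc1, a mediator at DNA breaks, fell (-0.46, adjusted p = 0.0497). Of 29 genes of translesion synthesis and excision repair, Polk rose and Hmces fell. Of 77 ribosomal protein genes, Rpl13 alone fell (-0.28, adjusted p = 0.0425), and of 22 DNA methylation genes Dppa3 alone fell. DESeq2 called 3 DNA methylation genes lower, and 2 were higher and 4 lower at an unadjusted p under 0.05. Of 12 mesendoderm genes Hand1 rose and T and Lefty2 fell. Without 1 library, Psat1 lost its call in all 6 fits (adjusted p = 0.0578 to 0.185), Mthfd2 in 5 (0.0505 to 0.217), Mdc1 in 5 (0.0559 to 0.210), Rpl13 in 5 (0.0852 to 0.179) and Gadd45g in 4 (0.0856 to 0.136). Among 19 trophoblast genes 2 rose, Krt7, a simple epithelial keratin (0.54, adjusted p = 0.0284), and Hand1 (0.65, adjusted p = 0.0309). The groups of Hand1, a transcription factor of giant cells, overlapped. It had 60.3, 66.5 and 43.5 CPM in FANCJ KO and 31.4, 33.8 and 45.2 CPM in WT. Among 15 fibroblast genes the contractile genes Acta2 (0.53, SE 0.09, adjusted p = 0.00375) and Tagln (0.38, adjusted p = 0.0447) rose. Without 1 library, Acta2 kept its call in all 6 fits, Hand1 lost its call in 4 (adjusted p = 0.116 to 0.138), and Krt7 and Tagln lost theirs in 5 each (0.0536 to 0.115 and 0.0757 to 0.184). The summed level of the fibroblast list was 1287 to 1340 CPM in FANCJ KO and 938 to 1120.4 CPM in WT, and its part in the matrix result was not tested.

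**Figure D3:**
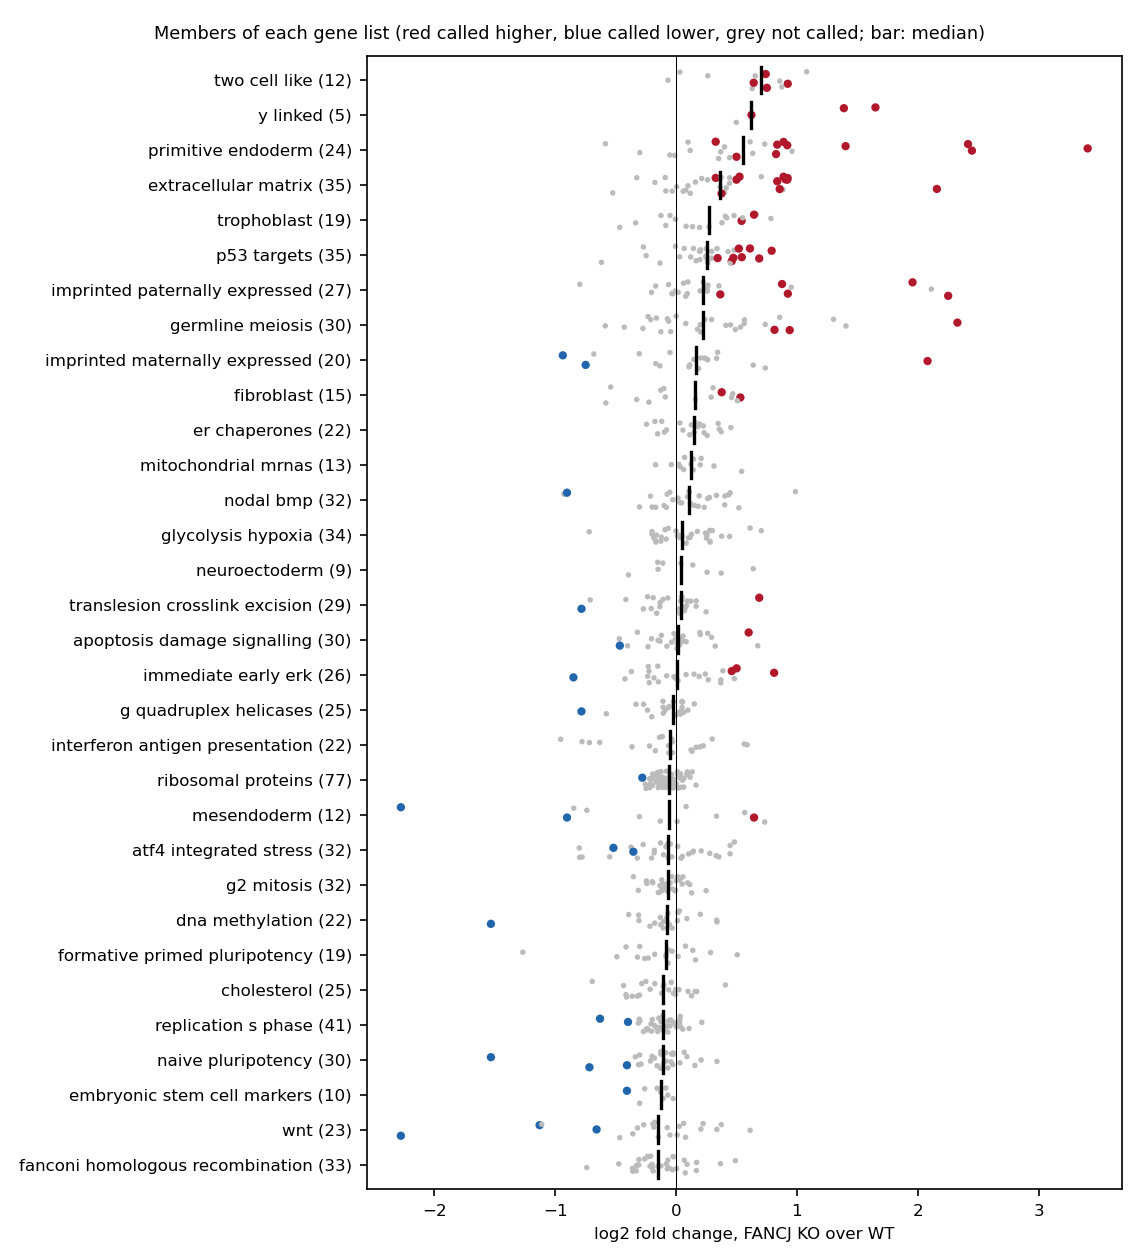
Each point is a tested gene of the list named on the left (number tested in brackets), placed by its log2 fold change of FANCJ KO over WT, with the list median as a black bar. Red points, called higher, gather in the 2-cell-like, Y-linked, primitive endoderm, extracellular matrix and p53 lists, and blue points, called lower, in the Wnt and naive pluripotency lists; Kdm5d, with 0 counts in FANCJ KO, is not drawn.

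Since FANCJ acts on G-quadruplexes, promoters were searched for their motif, 4 runs of at least 3 G with loops of 1 to 7 bases on either strand, in RefSeq windows of GRCm38.p6 from 250 bases before to 50 after the start site. A motif was found for 30 of the 64 lower genes with a window (46.9%), 47 of 135 higher genes (34.8%) and 3237 of 9988 of all tested genes (32.4%). A gene with several windows, at different start sites, was counted if any of them held a motif. On the sense strand the shares were 39.1% for lower genes, 21.5% for higher genes and 18.7% for all tested genes. The median GC content of the windows was 61.2% for lower genes, 60.7% for higher genes and 61.2% for all. These shares are a description without a test, and a match is not a folded structure. Among the 15 largest falls, 10 genes had a window and 4 of these held the motif, all on the sense strand; among the 15 largest rises, 11 had a window and 3 held it, 1 of them on the sense strand. The 250 bases before the start site are given 5′ to 3′ on the sense strand for these sense motifs, with the motif found first in capitals; further runs of G outside the capitals are not marked. Ciart (a repressor of the circadian clock; chr3:95882229-95882478, minus strand), Meg3 (chr12:109545148-109545397, plus strand), Rasgrp2 (a guanine exchange factor of Rap; chr19:6399625-6399874, plus strand) and Bcl3 (chr7:19822756-19823005, minus strand) fell, and Serpine2 (chr1:79858666-79858915, minus strand) rose.
Ciart: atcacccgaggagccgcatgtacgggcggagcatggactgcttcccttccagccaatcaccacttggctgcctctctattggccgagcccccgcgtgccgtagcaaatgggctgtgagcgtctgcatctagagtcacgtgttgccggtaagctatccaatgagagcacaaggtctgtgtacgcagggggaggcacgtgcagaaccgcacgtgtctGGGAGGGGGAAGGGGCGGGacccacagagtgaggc
Meg3: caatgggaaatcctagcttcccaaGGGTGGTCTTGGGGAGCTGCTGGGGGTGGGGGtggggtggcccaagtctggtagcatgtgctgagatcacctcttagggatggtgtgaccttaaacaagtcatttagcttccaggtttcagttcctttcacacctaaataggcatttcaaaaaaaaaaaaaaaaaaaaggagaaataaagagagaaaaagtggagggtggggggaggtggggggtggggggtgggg
Rasgrp2: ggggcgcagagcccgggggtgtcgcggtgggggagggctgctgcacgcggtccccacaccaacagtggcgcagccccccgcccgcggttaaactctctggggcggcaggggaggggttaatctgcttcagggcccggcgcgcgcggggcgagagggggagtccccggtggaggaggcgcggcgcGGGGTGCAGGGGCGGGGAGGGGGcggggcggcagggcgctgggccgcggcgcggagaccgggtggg
Bcl3: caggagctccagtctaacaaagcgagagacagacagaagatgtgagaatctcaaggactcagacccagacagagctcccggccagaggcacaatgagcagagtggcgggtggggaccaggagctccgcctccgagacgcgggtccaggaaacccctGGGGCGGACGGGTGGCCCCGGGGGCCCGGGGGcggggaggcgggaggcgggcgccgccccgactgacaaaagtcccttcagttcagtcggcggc
Serpine2: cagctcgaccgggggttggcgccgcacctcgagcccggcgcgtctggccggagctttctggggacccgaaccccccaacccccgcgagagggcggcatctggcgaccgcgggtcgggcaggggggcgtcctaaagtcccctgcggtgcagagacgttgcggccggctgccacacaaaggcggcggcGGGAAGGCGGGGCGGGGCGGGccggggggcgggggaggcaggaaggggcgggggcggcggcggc
Relative to the start site, the capitals run from -35 to -17 in Ciart, -226 to -195 in Meg3, -66 to -44 in Rasgrp2, -94 to -63 in Bcl3 and -64 to -44 in Serpine2. Meg3 and Rasgrp2 had 2 windows each, and only the window shown held a motif. The Meg3 window belongs to a start site inside the gene, which begins at 109541001. Ciart, at 8.51, 11.8 and 11.3 CPM in FANCJ KO and 19.3, 22.1 and 17.1 CPM in WT (-0.90, SE 0.22, adjusted p = 0.0341), had no overlap between groups. It lost its call in 5 of the 6 fits without 1 library (adjusted p = 0.0505 to 0.178). Rasgrp2 (-0.75, SE 0.15, adjusted p = 0.0112) lost its call without WT library 1 or 2 or FANCJ KO library 1 (0.0531 to 0.0611).

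Genes with a call lay on every autosome, X and Y, but not evenly. On X, 4.38% of 457 tested genes were called (15 higher, Xlr3a and Xlr3b among them, and 5 lower), against 2.07% over all genes. The share was 3.36% on chromosome 12 and 50% on Y, where 3 genes were called. The median log2 fold change of FANCJ KO over WT was between -0.08 and 0.05 on every autosome and on X. The lowest, -0.08, was that of chromosome 11, which carries Brip1, and the 3 FANCJ KO libraries each had it, at -0.06, -0.07 and -0.08 relative to the WT mean; 12 of its 1025 tested genes fell and 9 rose. On Y the median was 0.56 over 6 tested genes. The other FANCJ contrast was less even: its median was -0.47 on chromosome 6 and -0.15 on chromosome 8. The chromosome 6 values were 0.43 to 0.45 above WT in the DHX36 KO libraries, and the chromosome 8 values were -0.21 to -0.18 relative to WT in the DHX36/FANCJ KO libraries.

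**Figure D4:**
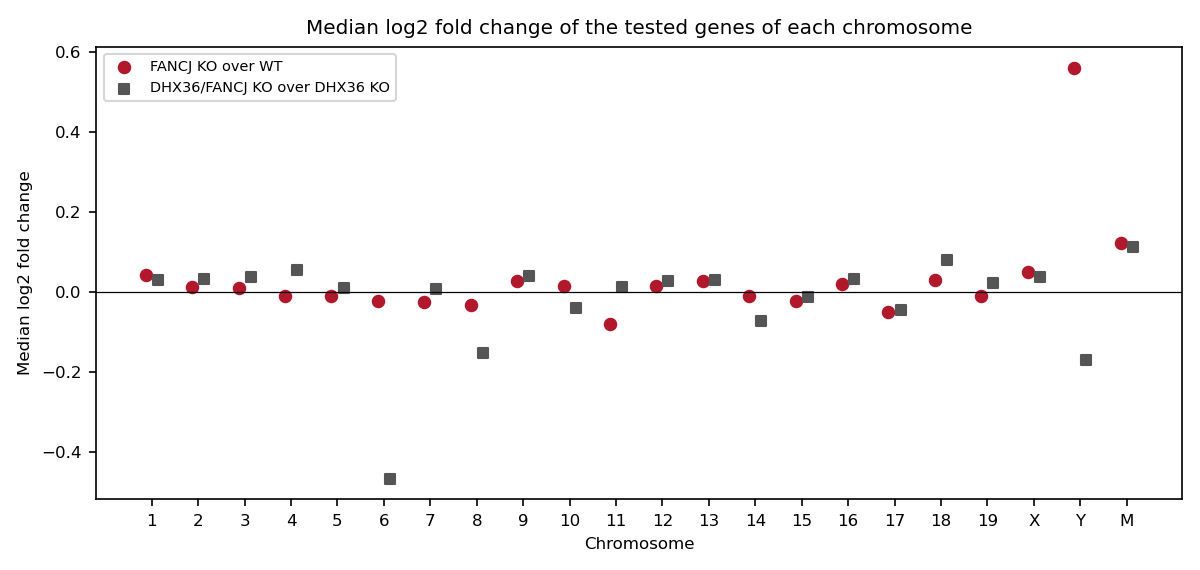
Median log2 fold change of the tested genes on each chromosome (M, mitochondrial) for FANCJ KO over WT (red circles) and DHX36/FANCJ KO over DHX36 KO (dark grey squares). The red circles stay near 0 except on Y (0.56), and the grey squares drop to -0.47 on chromosome 6 and -0.15 on chromosome 8.

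Whether a change with FANCJ loss was also seen in cells without DHX36 was read from DHX36/FANCJ KO over DHX36 KO, in which 2512 genes were called (19.7%), 1057 higher (8.28%) and 1455 lower (11.4%). Of the 79 genes lower in FANCJ KO, 61 (77.2%) were also lower in the other contrast, 24 with a call, and 4 were called higher there. Of the 185 higher genes, 95 (51.4%) were also higher in the other contrast, 48 with a call, and 52 were called lower. Over all 12765 genes, 53.2% had the same sign in both contrasts. Without chromosomes 6 and 8, 18 of 68 lower genes and 48 of 178 higher genes had the same sign with a call, and 4 and 48 were called with the opposite sign. The contrasts share no library, only the estimate of the spread.

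Brip1 (-4.45 and, in DHX36/FANCJ KO over DHX36 KO, -3.94), T (-2.28 and -2.31), Dppa3 (-1.53 and -0.67) and Egr1 (-0.85 and -0.45) fell in both contrasts, as did Sp5 (-1.13 and -2.47). Dppa3 lies on chromosome 6, whose median was shifted in the other contrast. Among higher genes, H19 (2.08 and 4.06), Xlr3b (2.33 and 1.85), Plagl1 (1.96 and 1.05), Srgn (3.41 and 0.97), Gata6 (1.40 and 0.71), Mdm2 (0.61 and 0.26) and Btg2 (0.46 and 0.37) rose in both. In others the sign turned. Acta2 was 0.53 in FANCJ KO over WT and -1.85 in the other contrast. It averaged 524 ± 13.5 CPM in FANCJ KO, 363 ± 41.9 in WT, 45.8 ± 4.79 in DHX36/FANCJ KO and 165 ± 12.03 in DHX36 KO (SD, n = 3 each). Meg3 was -0.75 and 1.00, Vgf 0.93 and -0.83, and Usp17lc 0.92 and -1.27. In the order of genotypes given for Acta2, Meg3 averaged 114, 191, 105 and 52.2 CPM. Vgf averaged 198, 103, 47.3 and 84.2 CPM, and Usp17lc 11.3, 5.91, 10.1 and 24.2 CPM. For Meg3 and Usp17lc, FANCJ KO and DHX36/FANCJ KO were thus close, and WT and DHX36 KO differed.

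The difference between the contrasts was itself tested, and 131 of the 264 genes passed (adjusted p under 0.05), 107 of the higher and 24 of the lower genes, against 1122 of all genes tested (8.79%; 6.06% with the higher and 2.73% with the lower fold change in FANCJ KO over WT). Since membership of the 264 already rests on FANCJ KO over WT, which is one side of that difference, the share is a description. By list, primitive endoderm had 4 higher and 3 lower genes in the other contrast, matrix 2 and 10, p53 targets 8 and 5, 2-cell-like genes 0 and 9, and germline genes 17 and 0. Their medians there were 0.20, -0.15, 0.12, -0.76 and 0.78.

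**Figure D5:**
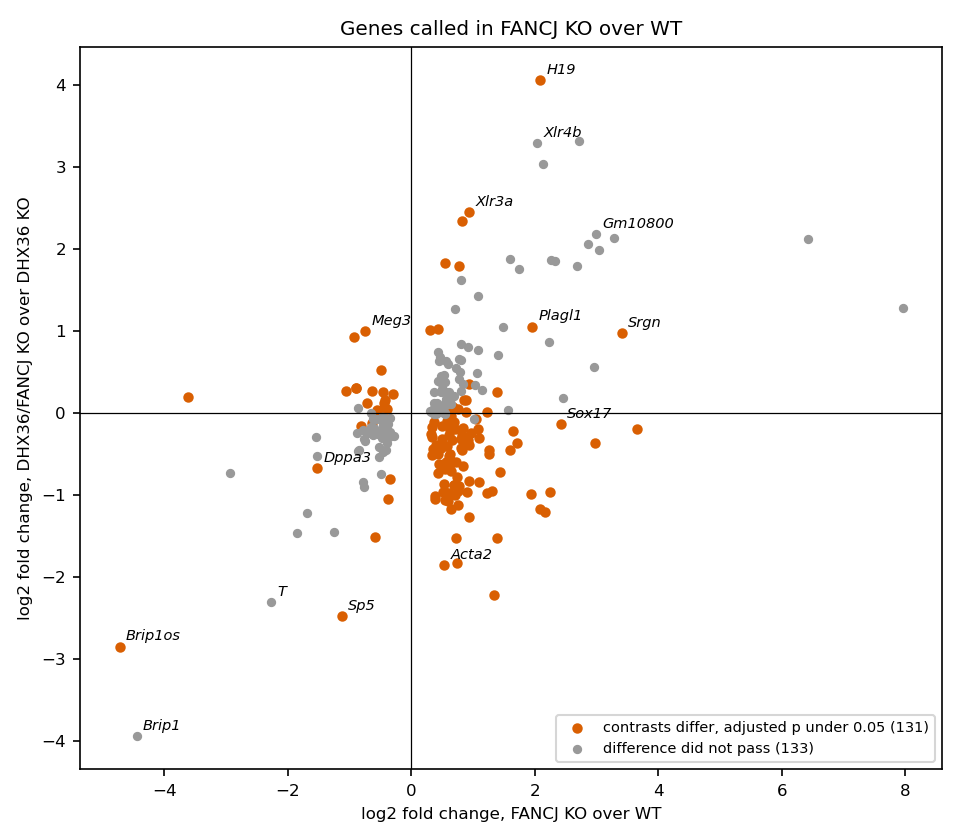
The 264 genes called in FANCJ KO over WT, by their log2 fold change there (horizontal) and in DHX36/FANCJ KO over DHX36 KO (vertical). Orange marks the 131 genes whose contrasts differ at an adjusted p under 0.05 and grey the other 133. Most lower genes sit at or below 0 on the vertical axis, while higher genes, such as H19 at 4.06 and Acta2 at -1.85, spread to both sides.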

How the data were processed

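The authors deposited a table of raw counts per gene and library; BWA and the builds GRCm38 and hg38 are named in the submitters' processing notes, without versions or roles. Whether reads or unique molecules were counted, and how strand and repeated matches were handled, is not given in the sources used here. The deposited counts were used as they are, with 92 spike-in rows dropped; totals ran from 4284785 to 14721931 per library, which limits genes of few counts. Genes were kept by edgeR's filterByExpr, scaled by TMM and fitted with edgeR 4.0.16 (R 4.3.3) in 1 quasi-likelihood model over all 12 libraries, with Benjamini-Hochberg adjustment over 12765 genes and a threshold of 0.05; the model was tested on simulated data. DESeq2 1.42.0 and other settings were alternatives. GENCODE M21 matched 32235 of 32285 identifiers. CPM values use TMM library sizes and are not per length, so levels are not compared between genes. Named genes are the 15 largest rises and falls with a mean of at least 10 CPM, up to 5 called members per list, the 2 smallest p in lists without calls, Y-linked genes and checks; 2 predicted genes were passed over, and 1 named gene is not reported here. The comparison, its members and its 32 gene lists were chosen with earlier results of these data known.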

Additional observations from a re-analysis of the deposited data

Results flagged for a closer look

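For 46 of the 89 named genes the log2 fold change differed between the 2 FANCJ contrasts (edgeR interaction test, adjusted p under 0.05). Among all 12765 genes tested, 1122 (8.79%) passed that test. For 32 of the 46 the 2 log2 fold changes had opposite signs. Most named genes were chosen by FANCJ KO over WT, which is a side of that difference, so both counts are descriptions. The values below are the log2 fold change of FANCJ KO over WT minus that of DHX36/FANCJ KO over DHX36 KO, so a positive value means a higher fold change in cells that keep DHX36. Of these 46 genes, 2 lie on chromosomes whose median was shifted in the DHX36-deficient contrast, Dppa3 on chromosome 6 and Col4a1 on chromosome 8, and the part of that shift was not tested.

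Among matrix, endoderm and contractile genes the difference was 3.37 for Col6a1, 2.55 for Sox17, 2.44 for Srgn, 2.38 for Acta2, 1.86 for Igfbp4, 1.39 for Tagln, 1.25 for Serpine2 and 0.88 for Col4a1. Among 2-cell-like genes it was 2.19 for Usp17lc, 1.70 for Gm5662, 1.52 for Gm8300 and 1.25 for Zscan4d. Among imprinted genes it was 3.21 for Airn, 0.90 for Plagl1, 0.72 for Peg3, 0.57 for Zrsr1 and 0.48 for Igf2. It was -1.75 for Meg3, -1.86 for Mirg and -1.98 for H19, whose rise was larger in the DHX36-deficient contrast. H19 averaged 639 CPM in FANCJ KO and 594 CPM in DHX36/FANCJ KO, against 151 CPM in WT and 35.7 CPM in DHX36 KO. Y-linked Uty, Ddx3y and Eif2s3y differed by 1.87, 1.13 and 1.13. The fitted difference of Kdm5d was -6.37, which is no bound, since all 3 FANCJ KO libraries had 0 counts.

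Of the remaining genes, Vgf (1.76), Ptgs2 (1.71), Gap43 (1.57), Hand1 (1.35), Sp5 (1.34), Tap1 (1.28), Gadd45g (1.13), Fos (1.08), Jun (0.66) and Pim2 (0.55) had the higher fold change in cells with DHX36. Utf1 (-0.46), Ttk (-0.51), Brca1 (-0.55), Fam98c (-0.65), Sox15 (-0.84), Dppa3 (-0.86), Nsdhl (-0.91), Lefty2 (-1.20), Ciart (-1.21), Xlr3a (-1.50) and Fkbp6 (-1.52) had the lower one. Spike-in transcripts, which no comparison used, were present at 4 to 30 counts per library, with 30 the most in any library.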

How the results depend on the processing

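The 264 genes called became 418 (292 higher, 126 lower) without the expression filter and 159 (110 higher, 49 lower) with the 2 genotypes fitted alone. Without 1 library they numbered 110 to 198, with 83 to 131 higher and 27 to 72 lower. DESeq2 called 321, of which 253 were shared, DESeq2 size factors gave 261, a minimum mean of 10 CPM gave 210 and thinning to equal depth gave 213. Of the 68 named genes with a call, 31 kept it in every one of the 12 or 13 settings in which they were tested, 37 lost it in at least 1 and 0 reversed. The fold change of Dhx36, which was not called, turned to -0.00617 after thinning and ranged from -0.0209 without WT library 3 to 0.0893 without FANCJ KO library 2. The replicate block gave 233 calls, 223 of them shared. For pairing, the deviation of each library from its genotype mean was taken in log CPM over 7705 genes. These deviations correlated at 0.0538, -0.00877 and -0.0152 between same-numbered FANCJ KO and WT libraries, so the numbers were not taken as pairs. In DHX36/FANCJ KO over DHX36 KO, higher genes numbered 703 after thinning and lower genes 967 without chromosomes 6 and 8, an alternative chosen after seeing the data. With G-quadruplex loops of up to 12 bases, the motif share was 71.9% for lower genes, 54.1% for higher genes and 48.0% for all tested genes. Other than fewer genes or libraries tested, the cause of these moves was not tested. The call kept in the fewest settings was that of Mdc1, in 3 of 13. Depth limits genes of a few counts per library, such as Cubn, Airn, Col6a1 and Uty.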

Other observations

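A pair of repetitive families, chosen after their values were seen, were higher in FANCJ KO. The X-linked Xlr family had 8 tested genes, of which 5 rose and 0 fell, with log2 fold changes from 0.86 to 2.72 and a median of 2.06. Its summed level was 56.7, 67.8 and 60.9 CPM in FANCJ KO, against 27.0, 20.2 and 21.1 CPM in WT, so every FANCJ KO library was well above every WT library. All 8 were also called higher in DHX36/FANCJ KO over DHX36 KO, where their median was 3.25. Copies of the family are near-identical, so values of single members are uncertain.

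The family of Gm10800, a predicted gene with repeat-like sequence, had 10 tested members, of which 6 rose and 0 fell, with a median of 2.93. The libraries were far less even: the summed level was 1188, 143 and 329 CPM in FANCJ KO, against 78.6, 32.0 and 125 CPM in WT. FANCJ KO library 1 stood far above the other FANCJ KO libraries, and these sums did not overlap, by a narrow margin. Of the members that rose, Gm10801, Gm10719 and Gm21738 had overlapping groups. The summed level was also 476, 179 and 178 CPM in DHX36 KO and 1546, 1012 and 988 CPM in DHX36/FANCJ KO. In that contrast 8 members were called higher. Gm10800 itself had 6381, 743 and 1003 counts in FANCJ KO and 226, 104 and 327 counts in WT.

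Of the 56 genes called in opposite directions in the 2 backgrounds, 4 are given here, also chosen after their values were seen. Cxcl12, a chemokine, was 1.34 in FANCJ KO over WT and -2.21 in DHX36/FANCJ KO over DHX36 KO, and Ppbp, a platelet chemokine, was 0.74 and -1.82. Pmp22, a myelin protein gene, was 0.72 and -1.53, and Cryab, a small heat shock protein gene, was 0.81 and -0.42. All 4 passed the test in both contrasts, which the choice from these 56 genes required. Cxcl12 lies on chromosome 6, whose median was shifted in the DHX36-deficient contrast, and the part of that shift was not tested.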
